A study of Arabidopsis thaliana with 8 samples.

Results

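Contacts between places 2 to 10 kb apart in the large single copy region of the plastid genome were examined in Hi-C maps of Arabidopsis thaliana chloroplast membranes. The deposited map divides the genome into bins of 1 kb. A bin pair was taken when both bins lay among the first 84, which form the large single copy region, and when their indices differed by 2 to 10. This gave 702 of the 12090 pairs in the table. Contacts of a bin with itself or with its neighbour were left out, and no read of the inverted repeat enters. The rule for the choice used positions only, and no measured value, although earlier results of these data were known when it was made.

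Plastid DNA is packed with proteins into nucleoids, which are bound to chloroplast membranes. It is a circle with a large and a small single copy region separated by an inverted repeat. The large single copy region carries most genes of the photosystems, the ATP synthase and the plastid RNA polymerase, many of them transcribed together in operons. Hi-C ligates nearby DNA ends and counts, by sequencing, how often each pair of places was joined. In a local map, a run of bins with many contacts among themselves is read as a domain, and a place that few contacts cross as a border.

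The study made Hi-C libraries from chloroplast membranes, and its title names membrane association of transcribed genes. All 8 libraries came from leaves of wild type plants of the Col0 ecotype, grown for 14 days, with the sample type given as membrane. The 4 crosslinked libraries carry the treatment of EGS, a long-armed chemical crosslinker that joins amines, with formaldehyde. The protocol names a concentration of 5 mM and a duration of 45 min for EGS, and of 4% and 4 h for formaldehyde. The 4 non-crosslinked libraries served as negative controls, although the protocol text is the same for every sample and only the treatment label and title separate them. Nothing in the labels says whether replicates came from separate plants, so p-values measure the spread between these libraries, which may be technical.

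The crosslinked replicates 1 to 4 held 6186, 4033, 2504 and 1528 contacts in these 702 pairs. The non-crosslinked replicates 1 to 4 held 4209, 2684, 197 and 348. Non-crosslinked replicates 3 and 4 were therefore thin, with no contact in 537 and 445 of the 702 pairs, against 1 to 122 in the crosslinked libraries. Whole libraries held 351828 to 708524 contacts, and the pairs made up 0.434% to 1.14% of all contacts in crosslinked and 0.0552% to 0.594% in non-crosslinked libraries, with overlap. The 95% Wilson intervals of these shares, which cover counting error only, ran from 1.11% to 1.17% in the deepest case and from 0.0480% to 0.0634% in the thinnest. Chi-square values between replicates of a group, divided by their degrees of freedom, were 0.991 to 1.11 over the 702 pairs, close to the 1 that counting noise gives. Over all pairs of the map they were 1.07 to 2.99, so each library was counted as 1 replicate.

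Crosslinked libraries lost contacts with distance within this range, and non-crosslinked libraries were nearly flat. Contacts per pair at 2 kb were 2.05, 2.78, 2.54 and 2.91 times those at 10 kb in crosslinked replicates 1 to 4. The same ratio was 1.06, 1.00, 0.830 and 1.50 in non-crosslinked replicates 1 to 4. Every crosslinked library lay above every non-crosslinked one, at means of 2.57 ± 0.380 against 1.10 ± 0.287 (SD, n = 4 each). The slope of log10 contacts per pair on log10 distance was -0.42, -0.60, -0.57 and -0.59 in crosslinked libraries. It was -0.038, -0.022, 0.080 and -0.19 in non-crosslinked libraries, so the groups did not overlap here either. Group means of the slope were -0.54 ± 0.084 and -0.042 ± 0.11 (SD, n = 4 each), and they differed by -0.50. Without the 2 kb distance it was -0.51, so the difference does not rest on the nearest pairs.

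**Figure D1:**
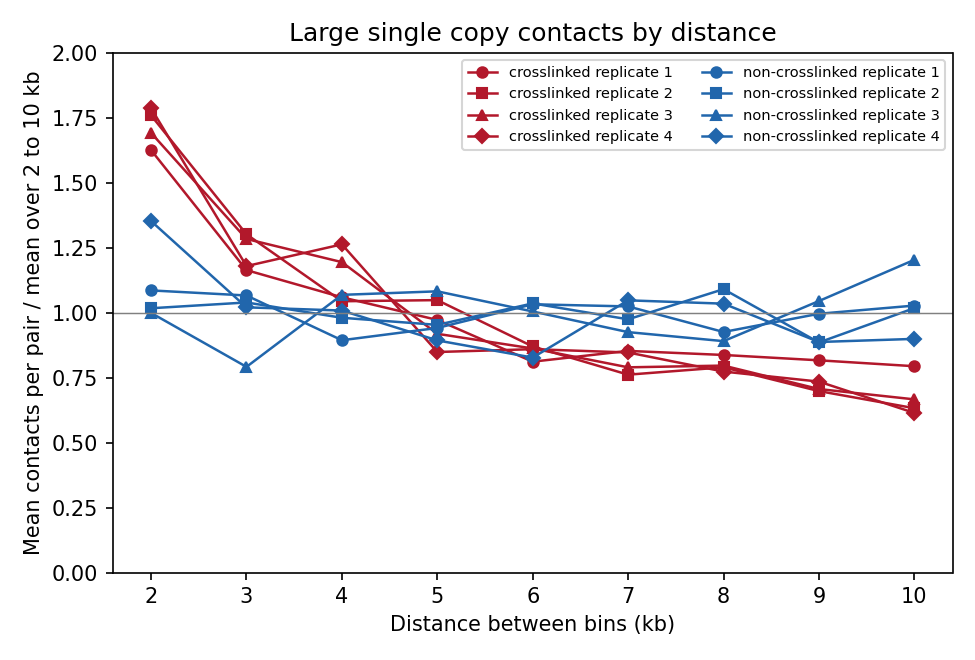
Mean contacts per large single copy bin pair at each distance from 2 to 10 kb, divided by the library's mean over all 9 distances, with 1 line per library. Crosslinked lines start at 1.63 to 1.79 at 2 kb and end at 0.615 to 0.794 at 10 kb, while non-crosslinked lines stay between 0.792 and 1.35.

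The plot of contacts by distance shows where the change took place. On the scale of each library's own mean, crosslinked contacts were 1.72 ± 0.0722 at 2 kb, 1.23 ± 0.0706 at 3 kb and 1.14 ± 0.106 at 4 kb (SD, n = 4 each). They were below the mean from 5 kb, at 0.947 ± 0.0844, and reached 0.677 ± 0.0811 at 10 kb. Non-crosslinked contacts were 1.11 ± 0.164 at 2 kb and 1.04 ± 0.125 at 10 kb (SD, n = 4 each). Compared with large single copy pairs more than 20 kb apart, the 2 to 10 kb pairs held 1.70, 1.87, 2.02 and 1.92 times as many contacts per pair in crosslinked replicates. The ratio was 1.02, 1.02, 0.856 and 0.970 in non-crosslinked replicates, again without overlap. A pair 2 to 10 kb apart thus held about as many contacts as a distant pair in the libraries made without crosslinks.

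The decay was of like size along the region. Dividing it into 4 sections of equal length, contacts per pair at 2 to 4 kb over those at 8 to 10 kb were 1.93 ± 0.347, 1.92 ± 0.312, 1.93 ± 0.260 and 1.76 ± 0.354 in crosslinked libraries, in map order (SD, n = 4 each). The non-crosslinked values were 1.13 ± 0.590, 1.08 ± 0.105, 0.965 ± 0.0982 and 1.06 ± 0.128. The level itself varied between sections. In the section from 42001 to 63000, which holds the genes from ycf3 to petA, contacts were 1.21 ± 0.0971 times the amount expected in crosslinked libraries and 0.883 ± 0.0708 times in non-crosslinked libraries (SD, n = 4 each). Expected here means the library's own mean over the large single copy pairs at the same distance.

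Local contact strength was next followed along the map. For each bin it is the sum of contacts with partners 2 to 10 kb away, divided by the sum expected from distance, so that 1 is the average of the region. In crosslinked libraries a block of higher strength lay in the middle of the region: of the 30 bins starting at 28001 to 57001, from petN to accD, 23 had a mean over 1. Of the 19 bins starting at 9001 to 27001, which hold the ATP synthase and RNA polymerase operons, 2 did. Of the 26 bins from 58001 to the end of the region, 5 did, and of the 9 bins at its start, 8 did. These stretches were drawn after the profile was seen, so no test was made of them.

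**Figure D2:**
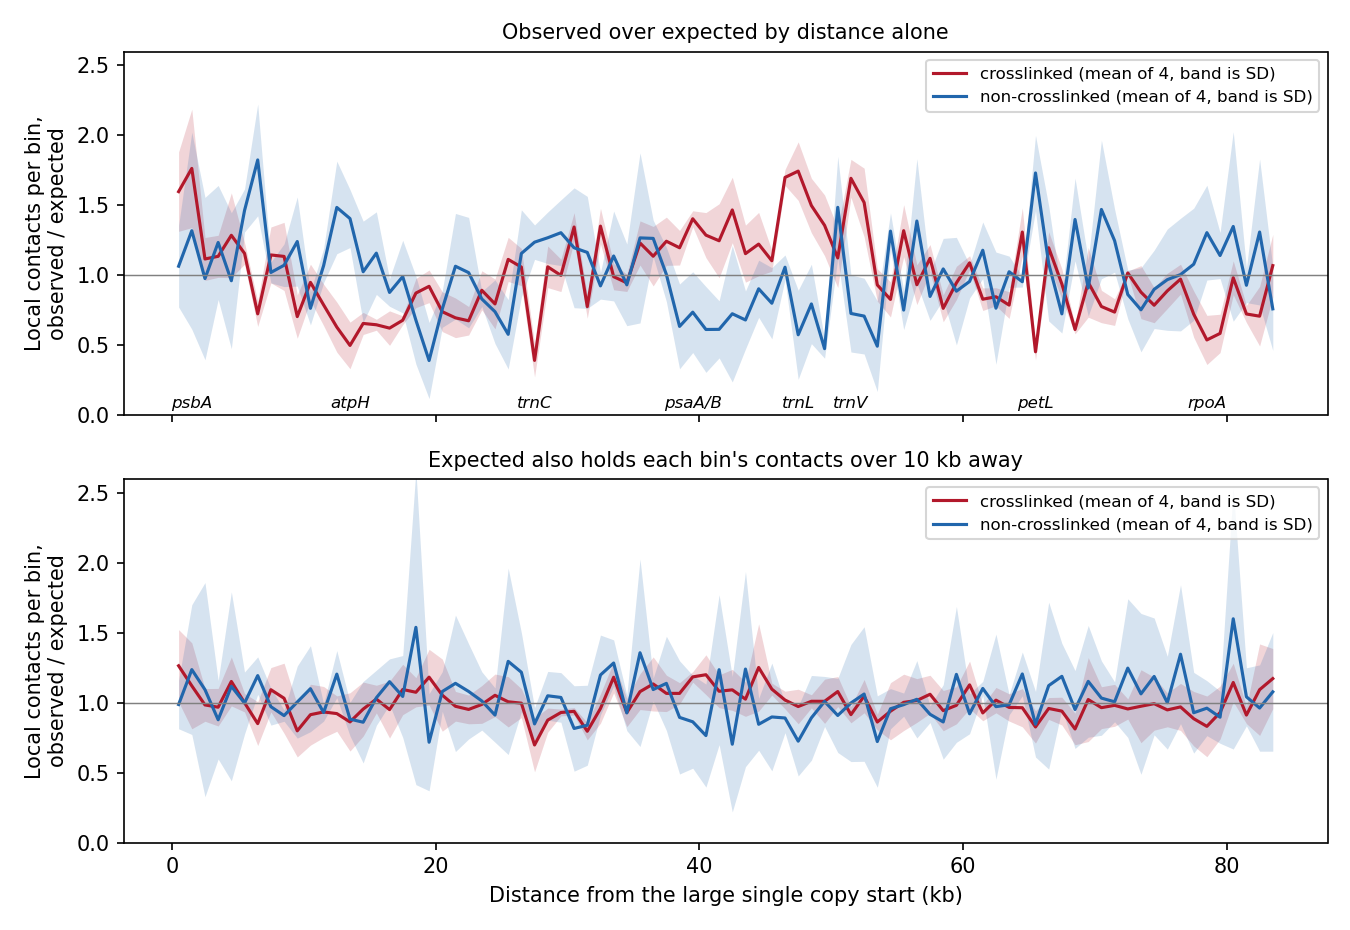
Local contact strength of the 84 large single copy bins (contacts with partners 2 to 10 kb away, observed over expected) against distance from the start of the region, as group means with a band of SD over 4 libraries. Above, expected holds distance alone, and group means run from 0.390 to 1.76 (crosslinked) and from 0.389 to 1.82 (non-crosslinked); below, it also holds each bin's contacts over 10 kb away, and crosslinked means run from 0.698 to 1.26.

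The strongest crosslinked bin, 1001 to 2000, holds psbA, the gene of the D1 protein of photosystem II, and part of trnK, a lysine tRNA gene. This bin lies at the edge of the region, with partners on 1 side only, and so rests on fewer pairs. It held 114, 77, 55 and 46 local contacts in crosslinked replicates 1 to 4, where the median bin held 139, 90, 56 and 35. Its strength was 1.45, 1.50, 1.73 and 2.37 in crosslinked replicates 1 to 4. It was 0.983, 1.02, 2.37 and 0.899 in non-crosslinked replicates 1 to 4, where replicate 3 stood as high as the highest crosslinked library. The groups overlapped at psbA, and the log2 change was 0.65 (edgeR quasi-likelihood test, adjusted p = 0.00707). The weakest crosslinked bin was 27001 to 28000, with trnC, the cysteine tRNA gene, at 0.390 ± 0.118 (SD, n = 4). In non-crosslinked libraries the strongest bin was 6001 to 7000 (rps16, trnQ), at 1.43, 1.57, 2.30 and 2.01 in replicates 1 to 4. The weakest was 19001 to 20000, inside rpoC2, at 0.389 ± 0.272 (SD, n = 4). The profiles ran in different orders: the bin of trnL at 47001 ranked 2 of 84 in crosslinked and 81 of 84 in non-crosslinked libraries, and that of petL and petG at 65001 ranked 83 and 2.

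Crosslinked and non-crosslinked strength were compared with edgeR's quasi-likelihood test in a single fit over all bins of the map, with Benjamini-Hochberg adjustment. Of the 84 large single copy bins, 49 differed at an adjusted p under 0.05, or 58.3%, where 57.4% of all bins of the map did. Of them 24 were higher and 25 lower in crosslinked libraries, against a background of 31.6% higher and 25.8% lower. TMM scaling in place of the distance offset gave 17 higher and 28 lower. In 38 bins the groups did not overlap, and over the map 48.4% of bins did not. The share of large single copy bins was thus close to that of the whole map. Log2 changes ran from -1.80 to 1.37 with a median of 0.059.

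In the middle block 17 of the 30 bins were higher and 5 lower. That block was drawn from the crosslinked profile, which also enters the difference, so this count gives no separate support. Bins with the largest changes were named only if their groups did not overlap, so the lack of overlap is part of that choice. The largest increase was in bin 49001 to 50000, with ndhJ and ndhK, which encode subunits of the NADH dehydrogenase-like complex. It held 242, 131, 97 and 42 local contacts in the crosslinked replicates in order, against 60, 34, 2 and 4 in the non-crosslinked ones. Divided by the expected counts these were 1.54, 1.28, 1.53 and 1.08 against 0.556, 0.494, 0.395 and 0.450. All 4 crosslinked libraries lay above 1 and all 4 non-crosslinked libraries below 0.6, and the log2 change was 1.37 ± 0.17 (SE; edgeR adjusted p = 1.32e-13).

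Bins a short way off on either side were higher too. The bin 47001 to 48000 holds part of trnL, a leucine tRNA gene. Its strength was 1.82, 1.72, 1.97 and 1.47 in crosslinked and 0.918, 0.756, 0.395 and 0.225 in non-crosslinked replicates. The bin 51001 to 52000, with trnV, a valine tRNA gene, had 1.83, 1.61, 1.78 and 1.55 against 0.779, 0.799, 0.988 and 0.337. Every crosslinked library exceeded every non-crosslinked one in both, with log2 changes of 1.12 ± 0.15 and 1.13 ± 0.15 (SE; edgeR adjusted p = 3.37e-13 and 6.10e-13). At 52001, where atpB and atpE, the beta and epsilon subunits of the ATP synthase, lie beside trnM, the change was 1.05 ± 0.15 (SE; edgeR adjusted p = 1.91e-10). The bin of ndhC at 50001, between those of ndhK and trnV, was lower instead, at a log2 change of -0.44 (edgeR adjusted p = 0.00328).

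Further increases lay in bins of psaA, psaB and psbD, but not in all bins of photosystem core genes. The bin 39001 to 40000 spans parts of psaB and psaA, which encode the reaction centre proteins of photosystem I. Its strength was 1.35, 1.48, 1.38 and 1.39 in crosslinked and 0.714, 0.901, 0.988 and 0.337 in non-crosslinked replicates, without overlap. The log2 change was 0.84 ± 0.16 (SE; edgeR adjusted p = 7.11e-07). Inside psaA, at 41001, it was 0.78, and at psbD, the gene of the D2 protein of photosystem II, at 32001, it was 0.67, also without overlap. The bins at 33001 (psbD, psbC), 34001 (psbC) and 35001 (psbC, trnS, psbZ) had log2 changes of -0.30, -0.24 and 0.26, none past the threshold. Of the psbB bins, that at 72001 was higher, at 0.40, and that at 73001, at 0.18, did not pass. At 25001, inside rpoB, the gene of the beta subunit of the plastid RNA polymerase, strength was 1.18, 1.18, 1.21 and 0.877 against 0.593, 0.698, 0.791 and 0.225. Crosslinked replicate 4 lay apart from the other 3 there, yet above all non-crosslinked libraries, and the log2 change was 0.86 (edgeR adjusted p = 9.77e-06).

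The largest decrease was in bin 65001 to 66000, with petL and petG, small subunits of the cytochrome b6f complex. It held 85, 44, 27 and 16 local contacts in crosslinked replicates and 166, 134, 10 and 13 in non-crosslinked replicates. As observed over expected these were 0.540, 0.430, 0.425 and 0.412 against 1.54, 1.95, 1.98 and 1.46. The groups stood far apart, and the log2 change was -1.80 ± 0.17 (SE; edgeR adjusted p = 1.37e-23). At trnC, 27001 to 28000, strength was 0.514, 0.371, 0.236 and 0.438 against 1.22, 1.41, 1.19 and 1.12. The groups did not overlap there either, and the log2 change was -1.59 ± 0.20 (SE; edgeR quasi-likelihood test, adjusted p = 1.32e-13).

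Neighbouring bins of the ATP synthase operon were also lower. At 13001, with atpH, the gene of the c subunit that forms the membrane ring, strength was 0.622, 0.547, 0.252 and 0.567 in crosslinked and 1.38, 1.37, 1.19 and 1.69 in non-crosslinked replicates. At 12001, with atpF, the b subunit of the stalk, it was 0.628 ± 0.179 against 1.48 ± 0.331 (SD, n = 4 each). Neither bin's groups overlapped, and the log2 changes were -1.37 and -1.06 (edgeR adjusted p = 3.37e-13 and 2.55e-08). Further decreases lay at genes of ribosomal proteins. They were 68001 (rps18, rpl20) at -1.11 and 6001 (rps16, trnQ) at -1.06 on the log2 scale. In both of them all crosslinked libraries lay below all non-crosslinked ones.

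Most of these differences were no longer past the threshold once the contacts of each bin at long range were taken into account. Local strength and the contacts of the same bin more than 10 kb away moved together over the 84 bins, with r of 0.666 to 0.880 in crosslinked and 0.459 to 0.851 in non-crosslinked libraries. The correlation is a description over bins of a library, which share its depth and the fragments of each bin. When expected counts also held the long-range contacts of both bins (an alternative added once the data had been looked at), 1 of 84 bins differed in place of 49, where 5.16% of all bins of the map did. That bin was 39001 (psaB, psaA), higher by a log2 change of 0.49 (edgeR adjusted p = 0.0253). In total 3 bins had an unadjusted p under 0.05, and log2 changes ran from -0.35 to 0.49.

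**Figure D3:**
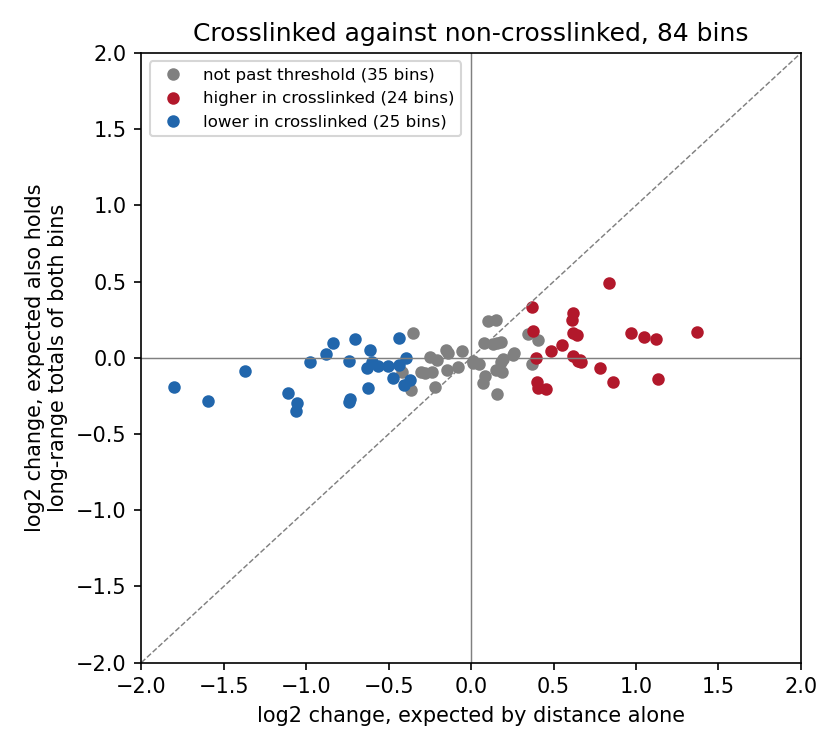
Log2 change of local contact strength, crosslinked over non-crosslinked, in 84 bins with expected counts from distance alone (x axis) and with expected counts that also hold the long-range contacts of both bins (y axis). Colour marks the 24 higher and 25 lower bins of the distance-only test; they span -1.80 to 1.37 on the x axis and lie between -0.35 and 0.49 on the y axis.

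The plot of both log2 changes shows the points lying along the horizontal. At ndhJ and ndhK the change went from 1.37 to 0.17, at trnL from 1.12 to 0.12, and at petL and petG from -1.80 to -0.19. At trnC it went from -1.59 to -0.29, and at atpH from -1.37 to -0.085. Of the 16 named bins, 5 changed sign, among them those starting at 51001, 25001, 41001 and 32001. With the contacts of each bin with itself in the expected counts instead, 45 bins differed, 40 of them shared with the distance-only test. Local strength ran against same-bin counts in crosslinked libraries, with r of -0.455 to -0.260 over 84 bins, and with them in non-crosslinked libraries, with r of 0.393 to 0.759. Whether unequal cutting, ligation or mapping of bins entered the long-range totals was not tested.

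Bins were then grouped by the genes they hold, and every count below is to be read beside the 24 higher and 25 lower of all 84 bins, whose median log2 change was 0.059. Bins of a list that lie close together share pairs, so these counts are not of separate places. Photosystem I genes, with the assembly factors ycf3 and ycf4, lay in 12 bins, of which 7 were higher and 0 lower, at a median of 0.48. The higher ones were the unbroken run from 38001 to 43001, at psaB, psaA and ycf3, and the bin at 67001. The bins of psaI and ycf4, at 59001 and 60001, did not pass the threshold. Photosystem II genes lay in 13 bins, of which 4 were higher and 0 lower, at a median of 0.18. The 3 bins of the NDH genes ndhC, ndhK and ndhJ had 2 higher and 1 lower, at a median of 0.66. The bins of tRNA genes were split, with 6 higher and 5 lower of 22 and a median of 0.17.

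The remaining groups had medians near or below that of all bins. ATP synthase genes lay in 9 bins with 2 higher, both at atpB, and 6 lower, at a median of -0.63. The lower ATP synthase bins were those of atpA, atpF, atpH and atpI, and that of the start of atpB beside rbcL. RNA polymerase genes had 3 higher and 5 lower of 14 bins with a median of -0.29, the higher ones inside rpoC2 and rpoB. Ribosomal protein genes, of which 15 of 16 in the list lie in the region, had 2 higher and 7 lower of 15 bins and a median of -0.21. Bins of matK, accD, clpP and cemA had 1 higher and 3 lower of 9, with a median of -0.28. Cytochrome b6f genes had 0 higher and 2 lower of 9 bins, with a median of 0.014, and 1 of these 2 was the petL and petG bin. The 3 bins of rbcL, the gene of the large subunit of Rubisco, had 1 higher, at 55001, and 2 lower, at 54001 and 56001. With long-range contacts in the expected counts, 1 photosystem I bin was higher and no bin of the other lists differed. List medians then lay between -0.081 and 0.13 on the log2 scale.

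Contacts inside operons asked whether bins of genes transcribed together met more or less often than their distance predicts. Of 12 operons, 11 held at least 1 bin pair 2 to 10 kb apart, and psbE-psbF-psbL-psbJ held none. In 4 of the 11 the groups did not overlap, or 36.4%, and 6 of the 11 had the higher mean in crosslinked libraries. No test was made for operons. In the operon of rps2, atpI, atpH, atpF and atpA, a ribosomal protein gene followed by ATP synthase genes, the 15 pairs held 101, 60, 29 and 25 contacts in crosslinked and 131, 69, 7 and 14 in non-crosslinked replicates. Observed over expected contacts were 0.612, 0.519, 0.409 and 0.574 in crosslinked replicates. They were 1.43, 1.19, 1.72 and 1.71 in non-crosslinked replicates, so this operon met less often than its distances predict in all crosslinked libraries and more often in all non-crosslinked ones. The means were 0.529 ± 0.0885 and 1.51 ± 0.252 (SD, n = 4 each). With long-range contacts in the expected counts they were 0.785 and 1.07, and the groups still did not overlap. After iterative correction of bin totals the means were 0.952 and 1.13, and the groups overlapped, at 0.883 to 1.04 and 1.00 to 1.29.

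**Figure D4:**
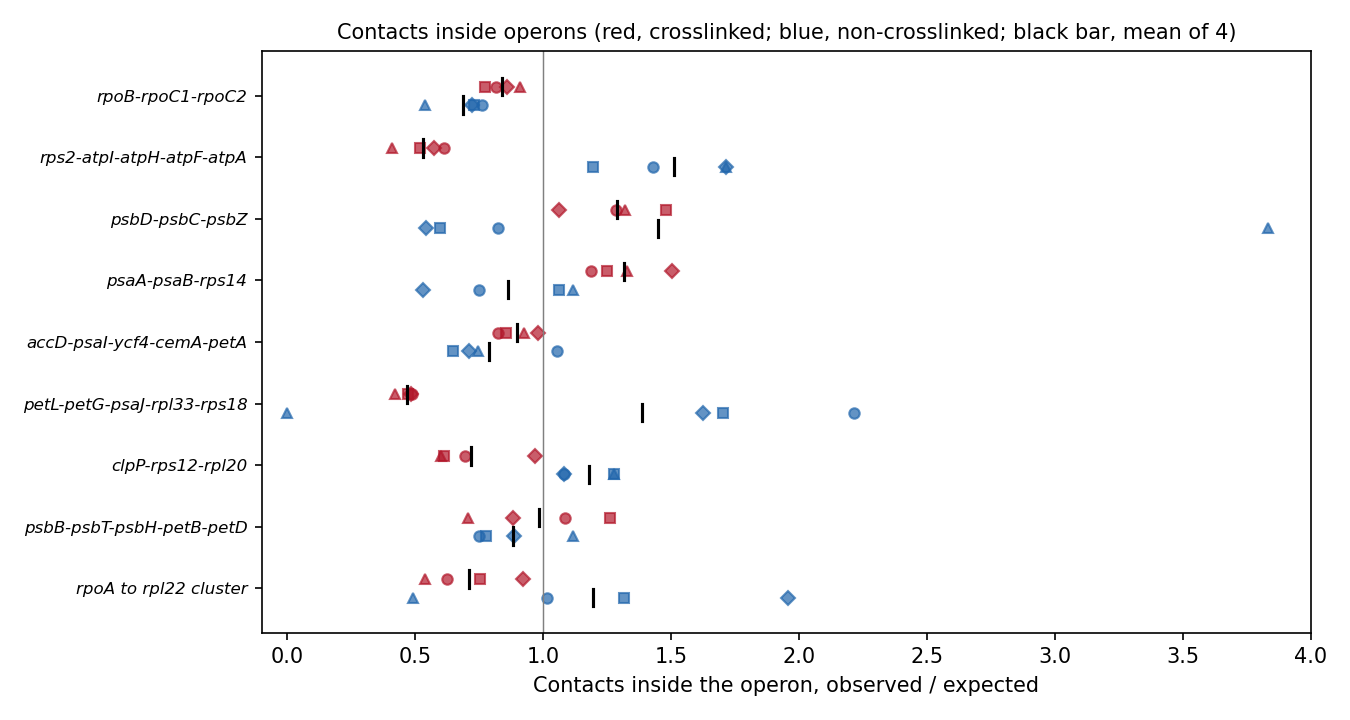
Contacts among bins of each operon, observed over expected by distance, with 1 point per library (red crosslinked, blue non-crosslinked; circle, square, triangle and diamond for replicates 1 to 4) and a bar at the mean of 4. The 4 crosslinked libraries lie at 0.409 to 0.612 for the ATP synthase operon and the non-crosslinked ones at 1.19 to 1.72; ndhC-ndhK-ndhJ and atpB-atpE, with few pairs, are not drawn.

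The operon of rpoB, rpoC1 and rpoC2, which encode the large subunits of the plastid RNA polymerase, had 0.814, 0.773, 0.908 and 0.859 in crosslinked and 0.762, 0.729, 0.538 and 0.722 in non-crosslinked replicates. All 8 libraries lay below 1, with a small gap between the groups. Inside psaA-psaB-rps14 the values were 1.19, 1.25, 1.33 and 1.50 against 0.747, 1.06, 1.11 and 0.531, without overlap. Inside clpP-rps12-rpl20, with the gene of a protease subunit and those of ribosomal proteins, they were 0.694, 0.614, 0.600 and 0.966 against 1.08, 1.28, 1.28 and 1.08, again without overlap. In these 3 operons the groups overlapped once long-range contacts were in the expected counts, and the order of the means turned. They were then 1.12 and 1.19 in crosslinked and non-crosslinked libraries for the polymerase operon, 1.27 and 1.50 for the psaA operon, and 1.02 and 0.774 for the clpP operon. For the psaA operon non-crosslinked replicates 1 to 4 had 1.05, 1.43, 2.52 and 1.01, and replicate 3 held 3 contacts there. For the polymerase operon they had 1.16, 1.18, 0.987 and 1.43, and replicate 4 held 20 contacts. In both operons the highest non-crosslinked value is thus that of a thin library. For the polymerase operon replicates 1 and 2 also lay above the crosslinked mean of 1.12. For the psaA operon replicate 2 lay above the crosslinked mean of 1.27 and replicate 1 below it.

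In the other operons the groups overlapped. For psbD-psbC-psbZ, photosystem II genes, crosslinked replicates had 1.28, 1.48, 1.32 and 1.06. Non-crosslinked replicates 1, 2 and 4 had 0.824, 0.595 and 0.541 and replicate 3, the thinnest library, 3.83. Inside petL-petG-psaJ-rpl33-rps18 crosslinked libraries lay close together at 0.488, 0.469, 0.420 and 0.483, while non-crosslinked ones had 2.21, 1.70, 0 and 1.62. The value of 0 is again that of replicate 3, and the other 3 non-crosslinked libraries lay far above the crosslinked ones. Crosslinked and non-crosslinked means were 0.896 and 0.788 for accD-psaI-ycf4-cemA-petA, 0.983 and 0.881 for psbB-psbT-psbH-petB-petD, and 0.708 and 1.19 for the ribosomal protein cluster from rpoA to rpl22. The operons ndhC-ndhK-ndhJ and atpB-atpE held 1 such pair each, too few to read.

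Contacts crossing each border between neighbouring bins were summed over the pairs 2 to 10 kb apart on either side of it, up to 54 pairs. Mean crosslinked crossing was below the expected level at every border from that after 7000 to that after 30000. This stretch holds the genes from atpA to atpI and those from rpoC2 to rpoB. The mean was 0.648 after 14000, between atpH and atpI, and 0.706 after 17000, inside rpoC2. It was above the expected level after 31000 to 56000, which includes ycf3 to trnV, and below it again after 57000 to 80000. Of the 83 large single copy borders, 46 differed, or 55.4%, where 61.6% of all 151 borders of the map did (edgeR, adjusted p under 0.05). In crosslinked libraries 19 were higher and 27 lower, against 33.8% and 27.8% in the map, and the groups did not overlap at 43 borders, where 58.3% of the map's borders had none. DESeq2 called 28 borders, 17 higher and 11 lower. Borders close together share most of their pairs, so these counts are not of separate places.

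The largest decrease was after 12000, at atpF, where the crossing contacts were 0.702, 0.699, 0.618 and 0.702 times those expected in crosslinked and 1.17, 1.13, 1.16 and 1.28 times in non-crosslinked replicates. The groups were well apart, and the log2 change was -0.75 ± 0.095 (SE; edgeR adjusted p = 1.95e-13). The largest increase was after 46000, ahead of trnL, at 1.34, 1.36, 1.55 and 1.27 against 0.826, 0.851, 0.452 and 0.467. All crosslinked libraries lay above 1 and all non-crosslinked ones below it, and the log2 change was 0.77 ± 0.097 (SE; edgeR adjusted p = 1.62e-13). Increases followed after 43000 (ycf3), 50000 (ndhK and ndhC), 40000 (psaA) and 3000, at 0.73, 0.65, 0.53 and 0.52. Decreases followed after 15000, 8000, 29000 and 78000, at -0.49, -0.48, -0.43 and -0.37 on the log2 scale.

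With long-range contacts in the expected counts, 8 of the 46 borders still differed, where 18.5% of the map's borders did, and 16 had an unadjusted p under 0.05. They were lower in crosslinked libraries after 7000, 29000, 30000 and 68000 and higher after 42000, 43000, 45000 and 46000. Of the named borders, the one after 29000, between psbM and trnD, had a log2 change of -0.26 (edgeR adjusted p = 0.00455). The one after 46000 had 0.20 (edgeR adjusted p = 0.0480) and the one after 43000 had 0.22 (edgeR adjusted p = 0.0297). Signs after 15000 and 78000 turned.

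**Figure D5:**
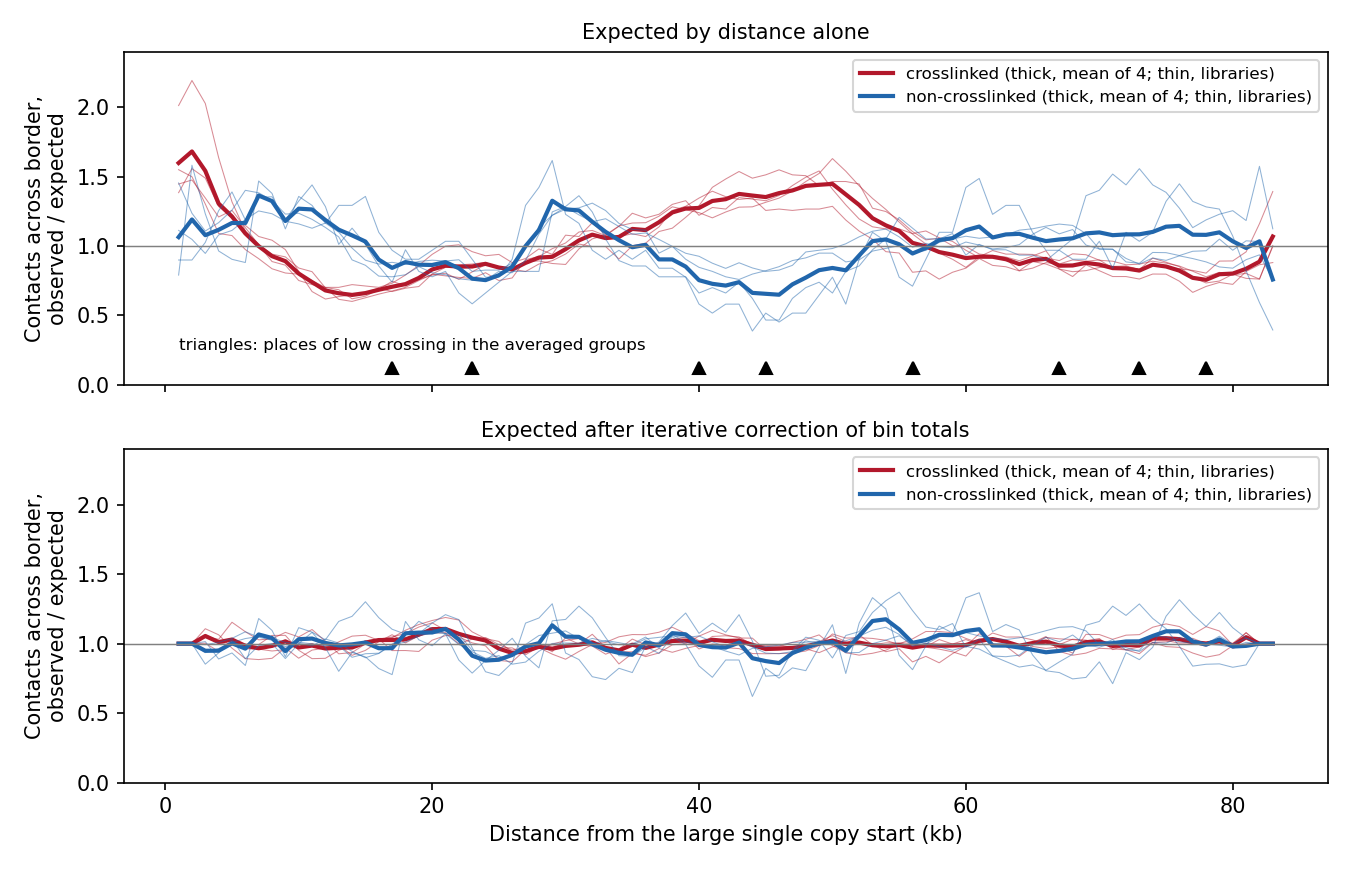
Contacts crossing each border of the large single copy region, observed over expected, against distance from its start, with thick group means and thin lines for the 8 libraries. Above, expected holds distance alone, and crosslinked crossing is 0.680 after 12000 and 1.38 after 46000; below, after iterative correction of bin totals, which draws them towards 1 by construction, the lines lie close to 1.

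Places of low crossing were looked for as candidates for domain borders, as the lowest point within 3 bins to either side and below the expected level, over both groups averaged. There were 8: after 17000 (rpoC2), 23000 (rpoC1), 40000 (psaA), 45000 (between ycf3 and rps4), 56000 (rbcL), 67000 (psaJ), 73000 (psbB) and 78000 (rpoA). After 40000, 45000 and 56000 mean crosslinked crossing was above the expected level, at 1.27, 1.35 and 1.02. Those places were found in 0 crosslinked libraries. The averaged log2 crossing was only -0.037 after 40000 and -0.038 after 56000. The groups alone had few and different ones. The crosslinked mean had 3, after 14000, 26000 and 78000, and the non-crosslinked mean had 4, after 17000, 24000, 46000 and 56000, with 0 shared within 1 bin. The place after 78000, at rpoA, was found within 1 bin in 4 of 4 crosslinked libraries and 0 non-crosslinked ones. There crossing was 0.778, 0.734, 0.709 and 0.805 in crosslinked against 0.885, 0.966, 1.28 and 1.19 in non-crosslinked replicates, without overlap. Those after 17000 and 23000, inside the RNA polymerase genes, were found in 4 of 4 non-crosslinked libraries and 1 crosslinked one.

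These dips were shallower once the contacts of each bin were taken into account. The SD of log2 crossing over the large single copy borders, leaving out 3 at each end, was taken per library. It was 0.286 to 0.372 in crosslinked and 0.177 to 0.429 in non-crosslinked libraries. Once expected counts held long-range contacts it was 0.105 to 0.196 in crosslinked libraries, where counting alone gives 0.0708 to 0.146. It was 0.0961, 0.111, 0.325 and 0.282 in non-crosslinked replicates 1 to 4, where counting gives 0.0819, 0.102, 0.374 and 0.290. The spread thus stayed above counting error in 6 of the 8 libraries, the exceptions being the thin non-crosslinked replicates 3 and 4. Iterative correction, which equalises bin totals over the same pairs, brought it to 0.0693 to 0.0945 in crosslinked libraries, but it draws crossing towards 1 by construction and does not show whether borders are absent. After 78000, corrected crossing was 1.00 ± 0.0910 in crosslinked and 0.993 ± 0.111 in non-crosslinked libraries (SD, n = 4 each).

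Contacts within stretches of 7 kb sum pairs that also enter the bins and borders above, so they give a coarser view and no separate support. Of 12 stretches, 4 had groups without overlap, or 33.3%. From 7001 to 14000, psbK to atpH, crosslinked replicates had 0.836, 0.710, 0.775 and 0.827 and non-crosslinked ones 1.19, 1.30, 0.980 and 1.10. From 42001 to 49000, ycf3 to ndhJ, they had 1.45, 1.29, 1.69 and 1.17 against 0.938, 0.916, 0.490 and 0.612. The first stretch was thus lower and the second higher in every crosslinked library. The stretch from 49001 to 56000, ndhJ to rbcL, had means of 1.31 and 0.831, and that from 63001 to 70000, psbJ to clpP, had 0.868 and 1.13. With long-range contacts in the expected counts the groups overlapped in all 12 stretches.

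Single pairs were tested in a fit of all pairs of the map with at least 20 contacts over the 8 libraries, which kept 614 of the 702. Of these, 71 differed, or 11.6%, where 17.3% of the 5213 tested pairs did (edgeR, adjusted p under 0.05). In crosslinked libraries 25 were higher and 46 lower, against 7.19% and 10.1% of all pairs. The groups did not overlap in 73 pairs, where 17.5% of all pairs had none. The share among these pairs lay below that of the map. The count was 35 when non-crosslinked replicate 1 was left out and 38 when non-crosslinked replicate 2 was, and DESeq2 called 14. With TMM scaling in place of the distance offset 47 pairs were higher and 1 lower. With long-range contacts in the expected counts of the large single copy pairs 2 to 10 kb apart, 3 pairs differed. A further count, of those with an unadjusted p under 0.05, was 31. All other pairs of the map kept expected counts from distance alone in that fit. The 15.5% of all pairs that differed in it is therefore no background for these 3. None of the 3 was among the 71.

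The largest increase, between trnL at 47001 and trnV at 51001, rested on 26, 20, 14 and 8 contacts against 2, 1, 0 and 0. Bins 49001 (ndhJ, ndhK) and 52001 (trnM, atpE, atpB) had 27, 12, 13 and 6 contacts in crosslinked and 1, 3, 0 and 0 in non-crosslinked replicates. Bins 25001 (rpoB) and 32001 (psbD) had 9, 10, 6 and 4 against 1, 0, 0 and 0. These pairs were named because their groups did not overlap, so contacts in every crosslinked library were part of the choice. Non-crosslinked replicates 3 and 4 held no contact in 537 and 445 of the 702 pairs, so their 0 values here tell little. Inside the polymerase operon, rpoC2 at 18001 and rpoB at 25001 had 16, 5, 5 and 2 contacts against 0, 1, 0 and 0. The psaA bin at 40001 and the ycf3 bin at 43001 had 11, 6, 9 and 4 against 1, 0, 0 and 0. The fitted log2 changes of these 5 pairs and of 55001 (rbcL) with 60001 (ycf4, cemA) ran from 1.45 to 2.16 (edgeR adjusted p of 0.000219 to 0.00666). They depend on the prior count and are no bounds, since the non-crosslinked libraries held 1 to 4 contacts in all.

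Among the 6 named decreases, which are pairs past the threshold, without overlap and not close to another chosen, 3 involved the petL and petG bin. With 63001 (psbJ, psbL, psbF) it had 8, 2, 3 and 2 contacts in crosslinked and 17, 5, 1 and 1 in non-crosslinked replicates, a log2 change of -1.64 (edgeR adjusted p = 0.000421). With 56001 (rbcL), 9 kb away, it had 5, 1, 0 and 2 against 12, 13, 1 and 1, and with 71001 (clpP) 5, 3, 0 and 1 against 14, 6, 1 and 2. The crosslinked group held fewer of these contacts in all, although more contacts entered from it. The trnC bin at 27001 and 36001 (trnG, trnfM, rps14) had 5, 1, 0 and 2 contacts against 10, 12, 1 and 1. Bins 6001 and 15001 had 2, 0, 1 and 1 against 6, 7, 3 and 1, and bins 50001 (ndhC) and 56001 (rbcL) had 6, 3, 2 and 1 against 12, 8, 1 and 3. The log2 changes of the 6 named decreases ran from -1.64 to -1.15, and from -0.75 to 0.062 with long-range contacts in the expected counts.

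Profiles of local strength were alike within groups and not between them. Over 84 bins, mean r of log2 observed over expected was 0.792 (0.698 to 0.918) between crosslinked libraries and 0.466 (0.299 to 0.761) between non-crosslinked ones. Between groups it was -0.272 (-0.408 to -0.127). With every library thinned to the 197 contacts of the smallest, the means were 0.257, 0.228 and -0.174, so at equal depth the means within the groups were close to each other. With long-range contacts in the expected counts they were 0.203, -0.042 and 0.037. The bins are not independent, since neighbours share pairs and libraries of a group share the fragments of each bin.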

How the data were processed

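The deposited table holds raw contact counts per pair of 1-kb bins for 8 libraries, without normalization. Per the submitters' processing notes, Trim Galore 0.4.1, Juicer and the TAIR10 build were used; filters on read pairs and the placing of repeat reads were not given in the sources used here. Gene names came from a RefSeq table of TAIR10.1, and the repeat images of both agreed within 1 bin (image sum 238.662 kb in the contacts, 238.649 kb in the gene table). Positions are those of the deposited bins, 1-based.

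Expected counts were each library's mean over region pairs at each distance. Counts per bin, border and pair were tested with edgeR 4.0.16 (R 4.3.3), quasi-likelihood, with log expected counts as offset, a minimum of 20 contacts over all libraries, a prior count of 2 and Benjamini-Hochberg adjustment over all features of the map (threshold 0.05). Standard errors are the log2 change over the square root of F. DESeq2 1.42.0 was an alternative. Other steps ran in Python 3.11.15 with pandas 2.3.3, numpy 2.4.6 and scipy 1.17.1. Long-range totals sum contacts over 10 kb away, with the repeat copies folded together. Counts were also simulated at a fixed dispersion of 0.02. There, 66.7% of 2-fold and 100% of 4-fold changes were recovered among 155 bins, 100% of both among 151 borders, and 11% and 47% among 5213 pairs.

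Named bins are up to 8 each way by change among those past the threshold without overlap, with the 5 highest and lowest of each group. Named borders are up to 5 each way and those of low crossing, and named pairs up to 6 each way, none close to another chosen; 2 of the named bins are not reported here. Members, lists and operons were chosen with earlier results of these data known.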

Additional observations from a re-analysis of the deposited data

Results flagged for a closer look

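Of 90 groups of 4 values examined for a library far from the others, 7 held one, and chance flags about 1 in 20 groups. The slope of crosslinked replicate 1 was -0.421, where the other 3 had -0.60 to -0.57. At rpoB, bin 25001, crosslinked replicate 4 had a strength of 0.877, against 1.18 to 1.21. At petL and petG, bin 65001, crosslinked replicate 1 had 0.54, against 0.412 to 0.430. In the stretch from 1 to 7000, with psbA and matK, crosslinked replicate 4 had 1.84, against 1.24 to 1.32, and in that from 35001 to 42000, with psaA and psaB, crosslinked replicate 1 had 1.14, against 1.31 to 1.33. Inside psbD-psbC-psbZ, non-crosslinked replicate 3 had 3.83, against 0.541 to 0.824. Inside atpB-atpE, crosslinked replicate 4 had 0.514, against 0.989 to 1.05. The 2 crosslinked libraries concerned are the deepest and the thinnest of their group at 2 to 10 kb.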

How the results depend on the processing

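Long-range totals in the expected counts moved most results. The counts that differed then were 1 bin, 8 borders and 3 pairs in place of 49, 46 and 71, and 2 of 10 gene lists in place of 5 had a median above 0. Within-group r exceeded between-group r by 0.0435 in place of 0.901. Signs turned for the bins at 51001 (-0.14), 25001 (-0.16), 41001 (-0.067), 32001 (-0.026) and another bin (0.097), the borders after 15000 (0.087) and 78000 (0.043), and the pair of 65001 and 71001 (0.062). No sign of a named bin, border or pair turned under any other setting, although 11 of 320 bin values, 15 of 200 border values and 12 of 168 pair values no longer passed.

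The shallower libraries alone gave 10 bins (3 higher, 7 lower), 30 borders (13 and 17) and 0 of 10 tested pairs, with 0 at an unadjusted p under 0.05. The deeper ones gave 47 pairs. DESeq2 gave 28 borders (17 and 11) and 14 pairs (3 and 11), and filterByExpr, which left 6 of the pairs to test, 4 pairs. TMM without the distance offset gave 17 higher and 28 lower bins, and 47 higher and 1 lower pair, with a median log2 of 0.49 in place of 0.068.

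Leaving out each library in turn gave 39 to 50 bins, 33 to 45 borders and 35 to 71 pairs, with 35 without non-crosslinked replicate 1 and 38 without replicate 2. The slope difference stayed at -0.55 to -0.46, that of the 2 kb to 10 kb ratio at 1.36 to 1.64, gene lists at 4 to 5, operons at 6 to 7 and the r difference at 0.822 to 0.993. Low-crossing places numbered 5 to 7, with 5 without crosslinked replicate 4, non-crosslinked replicate 3 or non-crosslinked replicate 4, and 3 when lowest within 5 bins. The ratio difference was 1.03 for 2 and 3 kb over 9 and 10 kb, in place of 1.47. The r difference was 0.705 for partners 2 to 5 kb away and 0.416 after thinning.

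With replicate number as a block, 44 bins (21 higher, 23 lower), 44 borders and 50 pairs differed. Same-numbered libraries showed no clear pairing: deviations correlated at -0.074, -0.086, -0.019 and 0.195, and replicate 4 alone matched its own number best. The check cannot exclude pairing, because non-crosslinked replicates 3 and 4 held only 197 and 348 contacts at 2 to 10 kb. The SD of their log2 bin strength was 0.793 and 0.764, where counting alone gives 0.679 and 0.510. Total contacts by number were 543800, 520907, 368149 and 351828 in crosslinked and 708524, 618672, 357017 and 408539 in non-crosslinked libraries. The cause of the shifts between settings was not tested. Of the 702 pairs, 614 held enough contacts to be tested. Among all tested pairs of the map, 11% of 2-fold changes simulated at a dispersion of 0.02 were recovered.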
